A study of Mus musculus with 6 samples.

Results

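Gimap genes encode the GTPases of immunity-associated proteins, and 8 of them were followed in bulk RNA-seq of sorted mouse HSCs. Gimap1, Gimap3, Gimap4, Gimap5, Gimap6, Gimap7, Gimap8 and Gimap9 were taken by gene name from the 34745 genes of the table. These 8 members were chosen with earlier results of these data known. All 8 had counts in every library and passed the filter on low counts. GIMAP proteins share a GTP-binding domain of the AIG1 type, and several are anchored in the membranes of the endoplasmic reticulum, Golgi, lysosomes or mitochondria. They are known for setting the survival of lymphocytes, since mice and rats without a working Gimap5 lose peripheral T cells. In mouse and human the genes lie side by side in a single cluster.

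HSCs were sorted from the bone marrow of adult C57BL/6 mice as LSK CD150+CD34-CD48- cells, with 3 samples in each of 2 groups. WT samples carried floxed Med23 alleles (genotype label WT(Med23floxp/flowp)), and KO samples carried the same alleles with Mx1-cre (genotype label KO(Mx1-cre;Med23floxp/flowp)). Med23 is a subunit of the Mediator complex, which links transcription factors to RNA polymerase II. Mx1-cre is driven by an interferon-inducible promoter, and the study switched it on by injecting the double-stranded RNA analogue poly(I:C), so Cre acts in many interferon-responsive cells besides HSCs. The libraries' labels give neither the mice's exact age nor the time since injection, and do not say whether WT mice received poly(I:C) or how many mice made up a sample. The p-values therefore measure the spread between these samples, which may be technical.

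The libraries held between 3537269 and 8131344 counts. Med23 itself had 47.6, 70.8 and 24.1 normalized CPM (counts divided by TMM-adjusted library totals) in WT 1, 2 and 3, against 31.6, 29.8 and 36.8 in KO 1, 2 and 3. The library labelled WT 3 was thus below all KO libraries, and the groups overlapped (log2 fold change of -0.54 with an SE of 0.41, edgeR adjusted p = 0.99). Genes of the Y chromosome had 194 to 915 counts in the libraries numbered 1 and 2, and 0 or 1 count in WT 3 and KO 3. Of the 12 skeletal muscle markers, 11 were tested. At an adjusted p under 0.05, 3 fell in KO by edgeR (Acta1, Actc1 and Myh3) and 10 by DESeq2. Over all genes, edgeR called 0.0719% of 12513 and DESeq2 called 149 of 15342. The summed level of the muscle markers was 155 to 398 CPM in WT and 4.65 to 16.7 CPM in KO. Of the 9 HSC markers, all were tested and 0 were called by edgeR or DESeq2, and the summed level was 2164 to 2536 CPM in WT and 2029 to 2298 CPM in KO. At an unadjusted p under 0.05 in edgeR, 2 HSC markers were lower and 1 was higher in KO, where 5.71% of all genes passed. Lower were Hlf (log2 fold change -0.81) and Ly6a (-0.78), and Mecom was higher (0.61). The muscle RNA moved with the groups, and its part in the Gimap levels was not tested. With WT 3 and KO 3 both left out, the log2 fold changes of Gimap5 and Gimap6 were -0.83 and -0.50, beside -0.85 and -0.54 in all libraries.

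The cluster occupied 123.6 kb of chromosome 6, from base 48647234 to 48770851 of mm10 (GRCm38, GENCODE M21 annotation). In order of position it held Gimap8, Gimap9 and Gimap4 on the plus strand, Gimap6 on the minus strand, Gimap7, Gimap1 and Gimap5 on the plus strand, and Gimap3 on the minus strand. The coding sequences were between 291 and 328 codons long, except that of Gimap8, with 688 codons. Gimap3 and Gimap5 were the closest pair, with 87.9% identity over 902 aligned coding bases, whereas the other pairs had between 52.9% and 64.9% identity. The longest identical stretch of this pair is shown because a read that falls inside it cannot be assigned by its sequence; it has 140 bases, coding bases 175 to 314 of Gimap3 and 187 to 326 of Gimap5, 5′ to 3′:
Gimap3 and Gimap5: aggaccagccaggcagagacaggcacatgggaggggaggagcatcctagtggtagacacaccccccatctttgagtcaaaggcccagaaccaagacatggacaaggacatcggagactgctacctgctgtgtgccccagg
Of all stretches of 50 bases in Gimap3 transcripts, 7.5% also occurred in Gimap5, and 4.5% of those in Gimap5 occurred in Gimap3. In Gimap1, 36.0% of exonic bases (1107 bases) lay under the antisense gene Gimap1os. A readthrough gene, Gm28053, shared 6.4% of the exonic bases of Gimap1, 3.7% of those of Gimap5 and 3.5% of those of Gimap7. The strand and multi-mapping settings of the counting are not given in the sources used here. The strand bears on Gimap1os only, since Gm28053 lies on the same strand as the members it overlaps. The counts of Gimap1, Gimap3, Gimap5 and Gimap7 are uncertain to this extent.

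The start regions of 4 members are shown, picked by their measured values, and differences between members were not tested. Gimap6 and Gimap1 were the highest per length. Gimap5, like Gimap6, had all KO libraries below all WT libraries, and Gimap9 was the member with a positive estimate. Each region runs from 250 bases before to 50 bases after the RefSeq start (GRCm38.p6), 5′ to 3′ on the strand of the gene. Capitals mark matches, on either strand, to CGGAAG, a core of ETS factor sites, and TGTGGT, a core of RUNX factor sites. The positions were chr6:48708195-48708494 (minus) for Gimap6, chr6:48738797-48739096 (plus) for Gimap1, chr6:48745947-48746246 (plus) for Gimap5 and chr6:48675885-48676184 (plus) for Gimap9.
Gimap6: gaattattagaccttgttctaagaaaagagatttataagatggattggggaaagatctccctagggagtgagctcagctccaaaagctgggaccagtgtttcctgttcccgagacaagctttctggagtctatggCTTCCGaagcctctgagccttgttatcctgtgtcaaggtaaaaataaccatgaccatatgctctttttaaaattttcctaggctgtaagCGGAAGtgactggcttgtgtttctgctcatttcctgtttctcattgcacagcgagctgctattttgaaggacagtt
Gimap1: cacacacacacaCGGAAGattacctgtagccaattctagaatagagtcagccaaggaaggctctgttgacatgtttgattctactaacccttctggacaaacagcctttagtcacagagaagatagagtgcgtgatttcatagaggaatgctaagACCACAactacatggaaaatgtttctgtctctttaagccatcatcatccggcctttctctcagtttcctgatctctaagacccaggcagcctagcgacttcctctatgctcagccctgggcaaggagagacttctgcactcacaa
Gimap5: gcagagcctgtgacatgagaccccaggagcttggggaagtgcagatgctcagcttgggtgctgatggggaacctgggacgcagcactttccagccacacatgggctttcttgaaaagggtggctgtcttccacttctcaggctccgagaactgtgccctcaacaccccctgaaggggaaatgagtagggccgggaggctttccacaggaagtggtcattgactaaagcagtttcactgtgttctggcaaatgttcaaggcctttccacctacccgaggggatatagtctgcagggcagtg
Gimap9: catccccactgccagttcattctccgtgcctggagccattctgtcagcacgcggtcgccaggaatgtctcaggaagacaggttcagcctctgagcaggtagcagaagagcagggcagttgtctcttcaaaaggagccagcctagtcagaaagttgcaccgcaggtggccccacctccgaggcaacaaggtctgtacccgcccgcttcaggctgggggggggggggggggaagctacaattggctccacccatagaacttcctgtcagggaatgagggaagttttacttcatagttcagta
The ETS core was found in 4 of 9 member windows, and 16.9% of all 32851 RefSeq windows held it. These 4 came from 3 members (Gimap1, Gimap6 and Gimap8), since overlapping windows of Gimap8 held the same site. In Gimap6 the ETS core occurred at 2 places, which began 26 bases (sense) and 115 bases (antisense) before the start. The RUNX core was found in 3 of 9 member windows (Gimap1, Gimap4 and Gimap7), against 16.8% of all windows. AGATAA, a core of GATA factor sites, was in no member window and in 11.2% of all windows. The letters of these motifs do not overlap each other, and a match describes the sequence only. Member windows had a GC content between 43.3% and 57.3% and between 2 and 8 CpG dinucleotides, where the medians of all windows were 52.7% and 7.

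In WT HSCs, Gimap6 and Gimap1 stood far above the rest of the family. Per kilobase of merged exon, Gimap6 had 137 ± 20.2 CPM (SD, n = 3) and Gimap1 had 127 ± 42.8. Their ranges over the WT libraries overlapped, and together with the ranges of the others they left a gap: the lowest WT library had 88.9 for Gimap1, whereas the highest of any other member was 38.2, for Gimap5. Gimap5 followed with 31.1 ± 6.73 and Gimap9 with 27.4 ± 7.26, which overlapped each other. Gimap3 (12.7 ± 5.13), Gimap4 (12 ± 6.68) and Gimap8 (11.3 ± 2.92) overlapped as well and cannot be ordered. Gimap7 was the lowest, with 3.83 ± 1.19 CPM per kb, and its highest WT library (4.92) was below the lowest of Gimap4 (5.02). By CPM without a length correction, Gimap6 was the 165th and Gimap1 the 238th of all genes in WT HSCs.

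**Figure D1:**
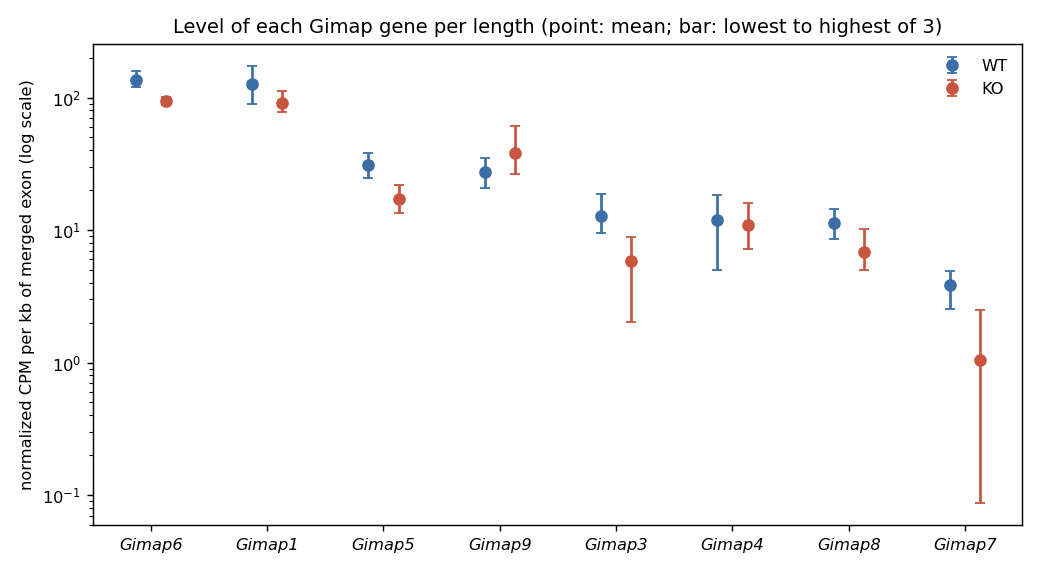
Level of each Gimap gene as normalized CPM per kb of merged exon (vertical axis, log scale), ordered by the WT mean; points are means of 3 libraries, WT blue and KO red, and bars run from the lowest to the highest library. Gimap6 and Gimap1 lie at 78.2 or above in every library of both groups, Gimap7 lies at 4.92 or below, and Gimap9 is the member whose KO mean is above its WT mean.

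In KO HSCs Gimap6 (94.2 ± 6.88 CPM per kb) and Gimap1 (90.6 ± 18.9) were again the highest, with overlapping ranges. Gimap6 made up 38.0 ± 5.72% of the family's summed level per kb in WT and 35.5 ± 2.10% in KO. Gimap1 made up 35.0 ± 9.46% and 34.3 ± 8.10%. The share of Gimap9 was 7.47 ± 1.08% in WT and 14.3 ± 7.10% in KO, where KO 2 alone reached 22.5%. Gimap5 made up 8.59 ± 1.65% in WT and 6.50 ± 1.64% in KO.

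The summed Gimap level was lower in KO than in WT HSCs, with no member past the threshold of the test across all genes. The sum of the 8 genes was 1017, 1162 and 1267 CPM in WT 1, 2 and 3 and 828, 787 and 801 CPM in KO 1, 2 and 3. All KO libraries were below all WT libraries, and the KO mean of 805 ± 20.6 CPM was 70.1% of the WT mean of 1149 ± 125 CPM. With each gene divided by its exon length the KO sum was 73.2% of WT, and by the authors' FPKM it was 76.8%. No gene of the family was called by edgeR at an adjusted p of 0.05 (0 of 8), where 0.0719% of the 12513 genes tested were called, and DESeq2 also called 0 of 8. At an unadjusted p under 0.05, 2 of 8 members passed in edgeR (Gimap5 and Gimap6, both lower in KO). In edgeR, 5.71% of all genes passed in either direction and 2.77% passed and were lower in KO. DESeq2 also had 2 of 8 members past this threshold. The edgeR count was 1 of 8 without WT 2, KO 2 or KO 3 and 4 of 8 without KO 1. The shares of all genes for DESeq2 and for these left-out fits are not given here. The estimate was below 0 for 7 of 8 members, against 50.5% of all genes. For 4 of 8 members all KO libraries were below all WT libraries (Gimap3, Gimap5, Gimap6 and Gimap7), against 6.15% of all genes, and for 0 of 8 were they all above, against 6.25%. The median log2 fold change was -0.63 over the members and -0.01 over all genes tested. In bulk samples, fewer cells with Gimap RNA and less Gimap RNA per cell cannot be told apart.

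**Figure D2:**
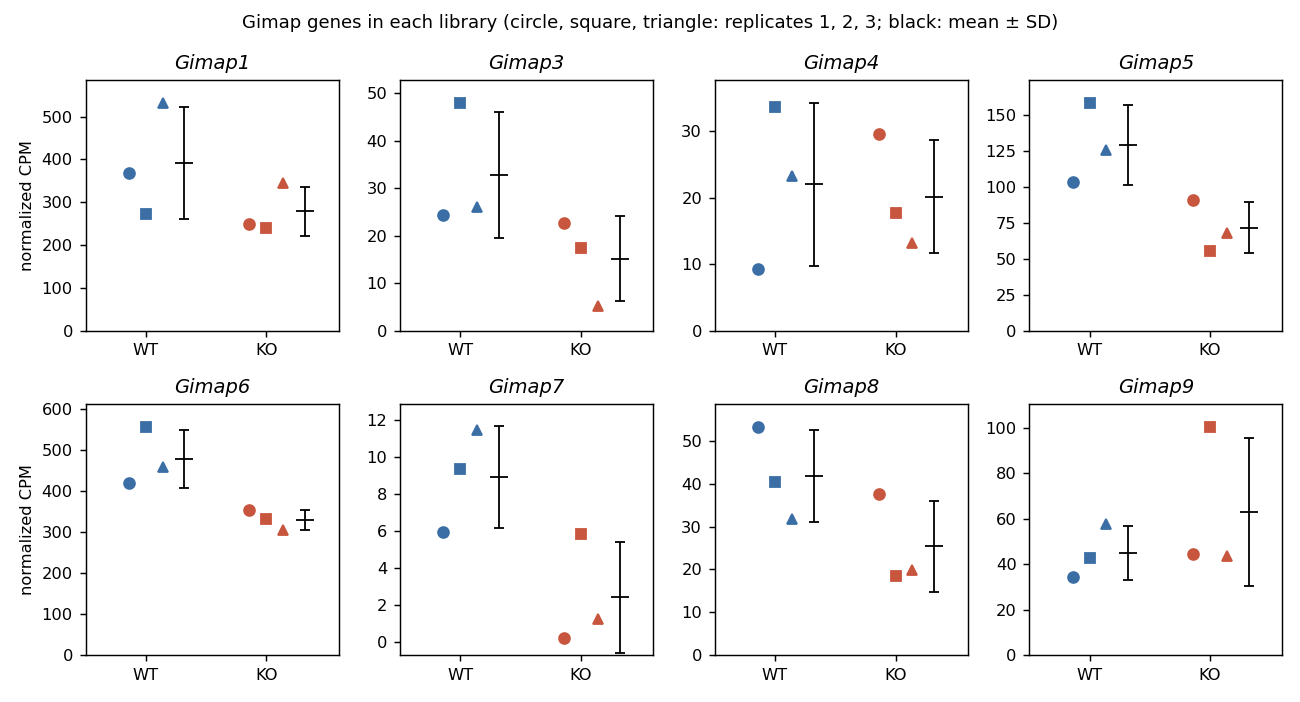
Normalized CPM (vertical axes, linear) of each Gimap gene in the 3 WT (blue) and 3 KO (red) libraries, with circles, squares and triangles for replicates 1, 2 and 3 and the group mean ± SD in black. The KO points of Gimap3, Gimap5, Gimap6 and Gimap7 lie below all WT points, and the highest point of Gimap9 is KO 2.

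Gimap5, the lysosomal member whose loss depletes T cells, had the smallest p of the family. It had 103, 158 and 125 CPM in WT 1, 2 and 3 and 90.6, 55.5 and 68.0 CPM in KO 1, 2 and 3. The groups did not overlap, but KO 1 was close to WT 1. KO over WT, its log2 fold change was -0.85 (SE 0.28, 95% CI -1.48 to -0.23), with an unadjusted p of 0.012 and an adjusted p of 0.62 in edgeR. The exact two-sided permutation test gave p = 0.1, the smallest that 3 samples against 3 allow.

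Gimap3 is the close paralog of Gimap5 and has been placed at mitochondria and the endoplasmic reticulum. It had 24.4, 48.1 and 26.0 CPM in WT 1, 2 and 3 and 22.7, 17.5 and 5.26 CPM in KO 1, 2 and 3. WT 2 was high and KO 3, with 26 counts, was low, while WT 1, WT 3 and KO 1 lay between 22.7 and 26.0 CPM. This gave a log2 fold change of -1.12 (SE 0.57, 95% CI -2.38 to 0.14), with an edgeR adjusted p of 0.93 and an exact permutation p of 0.1. It was -0.73 without WT 2 and -0.71 without KO 3.

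Gimap1 is needed for the survival of mature B and T cells. It had 368, 273 and 533 CPM in WT 1, 2 and 3 and 250, 240.2 and 345 CPM in KO 1, 2 and 3. All KO libraries were below the WT median, but KO 3 was above WT 2, so the groups overlapped. Its log2 fold change of -0.49 (SE 0.27, 95% CI -1.09 to 0.11) had an edgeR adjusted p of 0.94. It was -0.20 without WT 3, the library whose Med23 level was below that of all KO libraries. Gimap1os, the antisense gene that covers part of Gimap1, had 26.1 ± 4.73 CPM in WT and 15.3 ± 7.95 CPM in KO (log2 fold change -0.77, SE 0.49, edgeR adjusted p = 0.99), and the readthrough gene Gm28053 had 7.79 ± 3.77 and 5.25 ± 2.12 CPM (-0.56, SE 0.79, edgeR adjusted p = 1). Reads inside the exonic overlap of Gm28053 and Gimap1 cannot be told apart. For Gimap1os, on the other strand, this depends on the strand setting of the counting, which is not given.

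Gimap6, a cytosolic member that binds the GABARAPL2 protein of autophagy, had the highest mean CPM of the family in both groups and the smallest spread relative to its mean. It had 419, 556 and 458 CPM in WT 1, 2 and 3 and 353, 331 and 305 CPM in KO 1, 2 and 3. The lowest WT library was above the highest KO library, and the KO SD was 24.0 CPM around a mean of 329. The log2 fold change was -0.54 (SE 0.19, 95% CI -0.96 to -0.11), with an unadjusted p of 0.018 and an adjusted p of 0.71 in edgeR and an exact permutation p of 0.1. It had 1482 to 4528 counts in each library, and its estimate stayed between -0.62 and -0.41 in all 18 alternatives tried.

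Gimap4, which has been linked to the death of T cells, varied more within WT than between the groups. It had 9.23, 33.7 and 23.2 CPM in WT 1, 2 and 3 and 29.6, 17.7 and 13.2 CPM in KO 1, 2 and 3. WT 1 was the lowest library and WT 2 the highest, so that WT spanned all of KO. The log2 fold change was -0.13 (SE 0.55, edgeR adjusted p = 1), and its 95% CI of -1.36 to 1.1 holds more than a 2-fold difference in either direction. It was 0.02 with log2(FPKM + 0.1) and 0.32 without WT 2.

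Gimap7 was the least abundant member, with 29, 76 and 37 counts in WT 1, 2 and 3 and 1, 32 and 6 counts in KO 1, 2 and 3. These were 5.95, 9.34 and 11.4 CPM in WT and 0.203, 5.82 and 1.21 CPM in KO. KO 2 nearly reached WT 1, while KO 1 was under the floor of 3 counts. The log2 fold change of -1.86 had an SE of 1.1 (95% CI -4.31 to 0.59, edgeR adjusted p = 0.96), and it was -3.60 without KO 2.

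Gimap8 is the long member, with several GTP-binding domains in its protein. It had 53.3, 40.3 and 31.8 CPM in WT 1, 2 and 3 and 37.7, 18.6 and 19.8 CPM in KO 1, 2 and 3. KO 1 was above WT 3, and KO 2 and KO 3 were below all WT libraries. This gave a log2 fold change of -0.72 (SE 0.41, 95% CI -1.64 to 0.20, edgeR adjusted p = 0.96), and it was -1.12 without KO 1.

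Gimap9 was the member with a higher KO mean. It had 34.2, 42.8 and 57.8 CPM in WT 1, 2 and 3 and 44.4, 100.5 and 43.7 CPM in KO 1, 2 and 3. KO 1 and KO 3 lay inside the WT range, and KO 2 alone was above it. Its log2 fold change was 0.49 (SE 0.40, 95% CI -0.40 to 1.37, edgeR adjusted p = 0.99), and it was -0.02 without KO 2.

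**Figure D3:**
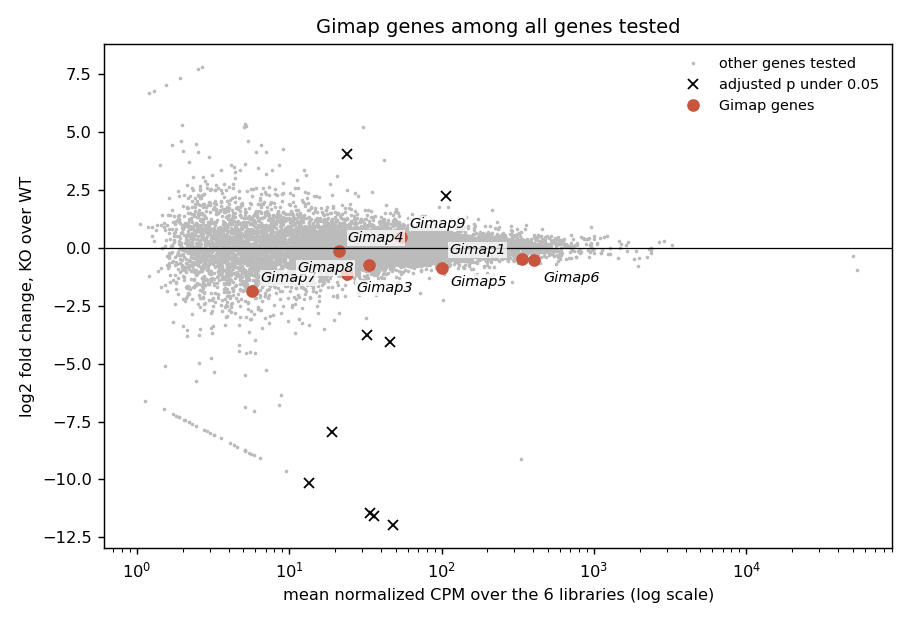
Log2 fold change, KO over WT (vertical axis), against mean normalized CPM over 6 libraries (horizontal axis, log scale) for the 12513 genes tested, with Gimap genes as red circles and the 9 genes past an edgeR adjusted p of 0.05 as crosses. Gimap6 and Gimap1 lie below 0 among the abundant genes on the right, and none of the 8 Gimap genes is marked as called.

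The estimates of genes around the cluster were spread around 0. Within 250 kb of the cluster's ends the table listed 25 flanking genes, of which 11 were tested, 0 were called and 0 passed an unadjusted p of 0.05 in edgeR, and DESeq2 also called 0. Of these 11, 5 had an estimate below 0, 0 had all KO libraries below all WT libraries and 1 (Sspo) had them all above, and the median log2 fold change was 0.05. Tmem176b and Tmem176a, a pair of membrane proteins of antigen-presenting cells and the nearest abundant neighbours, had 478 ± 11.4 and 360 ± 66.8 CPM in WT and 495 ± 70.6 and 328 ± 13.9 CPM in KO. Their log2 fold changes were 0.05 (SE 0.19) for Tmem176b and -0.13 (SE 0.20) for Tmem176a. On the other side, Repin1 had -0.20 (SE 0.25), Zfp775 0.53 (SE 0.81), Lrrc61 0.42 (SE 0.75) and AI854703 -0.61 (SE 0.53). No test compared the cluster with its flanks.

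**Figure D4:**
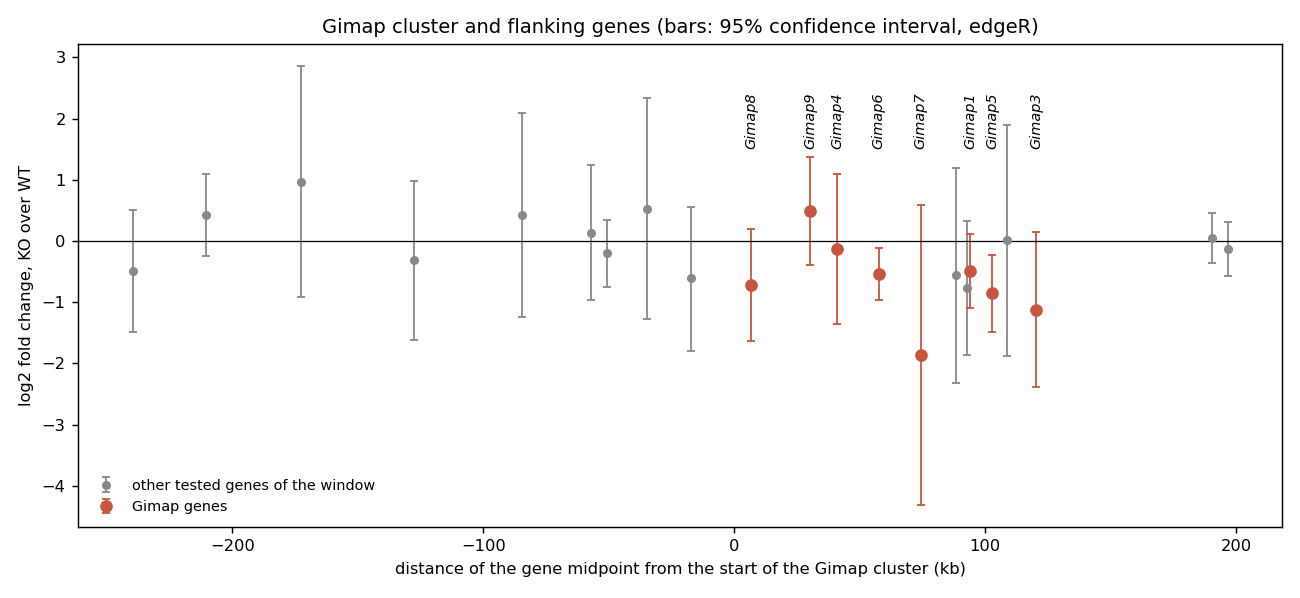
Log2 fold change, KO over WT, with its 95% confidence interval from edgeR (vertical axis), against the distance of each gene's midpoint from the start of the Gimap cluster in kb (horizontal axis); Gimap genes are red and other tested genes within 250 kb are grey. Of the red points 7 lie below 0 and Gimap9 above it, while the grey points outside the cluster scatter from -0.61 to 0.97.

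Genes that act with GIMAP proteins showed no call. Of 16 partners (BCL2 family members, autophagy genes, the GSK3 kinases and others), all were tested, 0 were called and 0 passed an unadjusted p of 0.05 in edgeR, and the median log2 fold change was 0.04. Bcl2, an inhibitor of cell death, had 86.7 ± 32.5 CPM in WT and 52.7 ± 10.9 CPM in KO (-0.71, SE 0.33, edgeR adjusted p = 0.91). Mcl1, another inhibitor of cell death, had 76.3 ± 10.7 and 104 ± 18.1 CPM (0.45, SE 0.26, edgeR adjusted p = 0.95). Their estimates had opposite signs. Of the 26 lymphoid priming genes, 16 were tested and 0 were called by edgeR. Of the 26, 6 were at 0 in all libraries, among them Il7r, Rag1 and Rag2. At an unadjusted p under 0.05 in edgeR, 2 passed, 1 higher and 1 lower in KO, where 5.71% of all genes passed. Il2rg, the common cytokine receptor chain of lymphocytes, had 408 ± 32.3 CPM in WT and 575 ± 109 CPM in KO (log2 fold change 0.49, SE 0.20, edgeR adjusted p = 0.80). Of 13 interferon-induced GTPases, another family of immune GTPases, 12 were tested, 0 were called and 0 passed an unadjusted p of 0.05 in edgeR, with a median log2 fold change of 0.15. DESeq2 called 0 genes of these 3 lists.

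Because Gimap genes are abundant in lymphocytes and endothelial cells, markers of these cells were examined. Of 14 T and NK cell markers, 10 were at 0 in all 6 libraries, including Cd3d, Cd3e, Cd3g, Cd8a and Il2rb, where 0 counts allow up to between 0.369 and 0.927 CPM depending on the library. The summed level of the 14 was 34.2 to 68.9 CPM in WT and 27.5 to 32.2 CPM in KO, from Nkg7, Thy1, Lck and Cd4, 0 of which were called or passed an unadjusted p of 0.05 in edgeR. The B cell markers summed to 49.0 to 72.3 CPM in WT and 59.8 to 87.6 CPM in KO, with 0 of 2 tested genes called by edgeR and Ms4a1 and Pax5 at 0. Of 8 endothelial markers, 3 were tested and 0 were called by edgeR, with 1 (Cldn5) lower at an unadjusted p under 0.05. All 3 had an estimate below 0. The 8 markers summed to 15.0 to 25.6 CPM in WT and 5.46 to 20 CPM in KO. Among those not tested, Cdh5 had 0 counts in all WT libraries and 0, 2 and 33 in KO 1, 2 and 3. Stab2 had 4, 0 and 0 counts in WT 1, 2 and 3 and 6, 25 and 4 in KO 1, 2 and 3. Cldn5, a tight junction protein of endothelium, had 54, 90 and 34 counts in WT 1, 2 and 3 and 0 in all KO libraries (edgeR adjusted p = 0.18, DESeq2 adjusted p = 1.4e-05). DESeq2 called 0 of the T, NK and B cell markers. The part of these genes in the Gimap levels was not tested.

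The tested genes outside the family whose profile over the 6 libraries was most like that of the summed Gimap level were Rhno1, Dtymk, Foxd2os, Odf3b and Dctd. Their root mean square differences from it, in log2 CPM after centring, were 0.0518, 0.0841, 0.0895, 0.0902 and 0.0941. Their log2 fold changes were between -0.60 and -0.44, and none was called. Among the members, Gimap6 came closest to the sum to which it contributes most, at 0.128, which ranked 36 among the 12513 genes, and Gimap7 was the farthest, at 1.28. The genes share the same 6 libraries, and the likeness is given as a description.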

How the data were processed

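HSC RNA was amplified with the SMART-Seq v4 kit per the labels, while the study's methods name a TruSeq kit. The authors deposited a table of raw gene counts and a table of FPKM. TopHat, HTSeq and mm10 are named, without versions or roles, in the submitters' processing notes, and strand and multi-mapping settings are not given in the sources used here. The gene lengths implied by the deposited FPKM values were over 5% longer than the merged exons for 10719 of 18944 genes, within 5% for 5381 and over 5% shorter for 2844, and for Gimap3, Gimap5, Gimap7 and Gimap9 these lengths were the sum of exons over all transcripts, so levels between genes were computed from counts per merged exon length.

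Groups came from the labels. Of 34745 identifiers, 34267 matched GENCODE M21, and RefSeq promoter windows (GRCm38.p6) were found for all 8 members. The main test was that of edgeR 4.0.16 in R 4.3.3 (filterByExpr, TMM, robust quasi-likelihood test, Benjamini-Hochberg adjustment over 12513 genes at 0.05). DESeq2 1.42.0 and limma 3.58.1 on log2(FPKM + 1) and log2(FPKM + 0.1) were alternatives, as were other filters and scalings and leaving out libraries. All fold changes set KO against WT. For single values, log2(CPM + 0.5) entered an exact two-sided permutation test. Replicates differed by more than sampling noise, with chi-square statistics per degree of freedom between 24.4 and 50.0 over 6 pairs. Reads carried no molecular identifiers, so limits from 3 counts cover counting error only. The edgeR procedure was tested on simulated counts with changes larger than all Gimap estimates. That test cannot tell whether changes as small as those of the Gimap genes would be called. Members and gene lists were chosen with earlier results of these data known. The text names every member, the flanking genes, from other lists those called or with the smallest p, and the 5 genes most like the summed level; the values of 1 lymphoid priming gene are not reported here.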

Additional observations from a re-analysis of the deposited data

How the results depend on the processing

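No Gimap gene was called at an adjusted p of 0.05 in any of the alternatives, and the smallest adjusted p of a member was 0.23 (Gimap5, DESeq2). Estimates of Gimap1, Gimap3, Gimap5, Gimap6, Gimap7 and Gimap8 stayed below 0 in every alternative in which they were tested, and a minimum of 10 counts in every library dropped Gimap7. Gimap4 changed sign with log2(FPKM + 0.1) (0.02) and with both libraries numbered 3 left out (0.14), and it ranged from -0.51 to 0.32 with each library left out in turn (above 0 without WT 2 and, at 0.10, without KO 3). Gimap9 ranged from -0.02 (without KO 2) to 0.71 with each left out in turn, and was 0.93 without both libraries numbered 3. Gimap1 moved from -0.49 to -0.20 without WT 3 Gimap7 from -1.86 to -3.60 without KO 2, Gimap3 from -1.12 to -0.73 without WT 2 and -0.71 without KO 3, and Gimap8 from -0.72 to -1.12 without KO 1. Over all genes, 9 were called by edgeR, against 149 with DESeq2, 15 with limma on log2(FPKM + 1), 1 with the same and no filter, 0 with voom sample weights, 5 with a replicate block, and between 5 and 11 with each library left out in turn (5 without WT 1). Without muscle genes, H19 and Igf2, an alternative chosen after seeing the data, 4 were called and the estimate of Gimap5 was -0.86. The causes were not tested. The log2 ratio of the summed Gimap level was -0.51, -0.38 with summed FPKM, and between -0.59 and -0.44 with each library left out. With a library left out, 4 or 5 members had KO libraries all below WT, against between 9.92% and 12.2% of all genes.

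The replicate numbers were not taken as a pairing, since the labels do not say what libraries of equal number share. Deviations of same-numbered libraries correlated at 0.17, 0.032 and 0.17. Their mean was 0.124, beside a mean of -0.062 for differently numbered libraries. WT 3 and KO 3 share the lack of Y-linked RNA. With the replicate block 0 Gimap genes were called, with estimates of -0.53 for Gimap6 and -0.86 for Gimap5, and 4 of 8 (Gimap1, Gimap3, Gimap5 and Gimap6) had an unadjusted p under 0.05 in edgeR, beside 8.03% of all genes. Depth limits Gimap7 most.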
